A study of Mus musculus with 18 samples.

Results

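The genes described here are 37 members of the endoplasmic reticulum (ER) stress response and of the ATF4 amino acid response. They were chosen by name, with the condition that a gene reach 1 FPKM (fragments scaled to transcript length and library depth) in at least 3 libraries. The names matched 38 rows of a table of 30452 genes. A second row named Ddit3, which overlaps the first on chromosome 10 (127290829 to 127293753), stayed below 0.1 FPKM in every library and was left out. The other 37 rows all passed and were tested among 11936 genes. They comprise 15 ER chaperones and folding enzymes, 4 genes of ER-associated degradation, 3 stress sensors with the transcription factor Xbp1, 7 regulators of the ATF4 response and 7 genes of amino acid and one-carbon metabolism.

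RNA came from MC3T3-E1, an established mouse pre-osteoblast cell line, after 5 days on fibre membranes cut to 15 mm and seeded with 20000 cells a well. The 3 membranes were the polyester PLLA alone, the same with zinc oxide added (PLLA/ZnO), and the latter carrying collagen in addition (PLLA/ZnO@Col), all sterilised by irradiation. Cells on each received no ultrasound (-US) or 10 min of ultrasound daily (+US), making 18 libraries, 3 for each of the 6 combinations. Nothing in the labels states that a group's 3 libraries are separate cultures, so the p-values reflect the variation among these libraries alone, and it may be technical. The series asks whether the piezoelectric membranes and ultrasound favour bone formation, and the comparisons here describe how the stress and amino acid genes differed between the same groups.

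When unfolded protein builds up in the ER, the sensors IRE1 (gene Ern1), PERK (Eif2ak3) and ATF6 (Atf6) are activated. IRE1 splices Xbp1 mRNA, and spliced XBP1 and cleaved ATF6 raise transcription of chaperones and degradation genes. PERK phosphorylates the translation factor eIF2 alpha, which favours translation of ATF4, and ATF4 induces genes of amino acid synthesis and uptake as well as Ddit3 and Trib3. Other kinases that sense amino acid shortage or haem deficiency act on the same factor, so the ATF4 genes can move without the chaperones. Osteoblasts secrete large amounts of collagen and depend on this folding machinery. Much of the regulation of Atf4, Xbp1 and the sensors is by translation, by splicing, or by cleavage or other activation of the protein. Gene-level counts do not show these steps.

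The promoters of the members carry the letters of the response elements unevenly, and the sequences are shown because chaperone and ATF4 genes are described separately in what follows. RefSeq start sites (GRCm38.p6) with 250 bases before and 50 after each start were found for 33 of 37 members, and not for Atf6, Hyou1, Manf and Slc7a5. Both strands were searched for the ER stress element (CCAAT, 9 bases of any kind, then CCACG), which ATF6 is known to bind with NF-Y. It was present in 7 of 13 chaperone genes, in 8 of 33 members and in 37 of 27025 genes (0.137%). The short XBP1 element TGACGTGG was in 0 of 33 members and 0.714% of genes. The CEBP-ATF response element TGATGNAA, which ATF4 is known to bind, was in 4 of 33 members and 4.51% of genes. The letters CCACG of the ER stress element also begin the reverse complement of the XBP1 element, so matches of these elements can overlap. A match is a description of letters in this window only. The 250 bases before the start follow 5′ to 3′ on the gene's own strand for Hspa5 and Hsp90b1, the most studied ER chaperones, and for Asns, the classical ATF4 target, with matched elements in capitals. Hspa5 and Hsp90b1 are on chr2:34771840-34772089 (plus strand) and chr10:86705445-86705694 (minus strand), and Asns is on chr6:7693210-7693459 (minus strand).
Hspa5: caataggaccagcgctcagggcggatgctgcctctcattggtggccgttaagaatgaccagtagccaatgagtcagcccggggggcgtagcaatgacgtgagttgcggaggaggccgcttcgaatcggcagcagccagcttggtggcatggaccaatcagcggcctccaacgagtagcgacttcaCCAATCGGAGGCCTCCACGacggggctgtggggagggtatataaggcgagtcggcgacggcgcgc
Asns: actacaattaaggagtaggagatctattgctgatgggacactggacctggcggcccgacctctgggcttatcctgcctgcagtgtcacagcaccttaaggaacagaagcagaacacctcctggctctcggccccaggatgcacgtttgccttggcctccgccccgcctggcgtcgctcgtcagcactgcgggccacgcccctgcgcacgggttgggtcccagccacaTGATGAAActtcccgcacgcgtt
Hsp90b1: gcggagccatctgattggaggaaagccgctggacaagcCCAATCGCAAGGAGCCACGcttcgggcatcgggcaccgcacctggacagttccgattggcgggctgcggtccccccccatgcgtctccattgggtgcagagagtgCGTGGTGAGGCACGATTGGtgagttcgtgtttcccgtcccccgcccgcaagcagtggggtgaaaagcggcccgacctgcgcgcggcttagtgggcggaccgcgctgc

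Hsp90b1 holds the ER stress element once on each strand. The remaining matches are given with the element's own orientation and its fixed letters in capitals, first those of the ER stress element and then those of the CEBP-ATF response element with 11 bases on each side. They show that the 9 bases between the fixed letters are not shared between genes.
Calr (chr8:84847075-84847093, plus strand): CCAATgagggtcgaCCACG
Canx (chr11:50325800-50325818, minus strand): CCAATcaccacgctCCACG
Pdia6 (chr12:17266491-17266509, plus strand): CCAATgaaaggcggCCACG
Dnajc3 (chr14:118937827-118937845, plus strand): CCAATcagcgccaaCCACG
Creld2 (chr15:88819520-88819538, minus strand): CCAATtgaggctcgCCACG
Syvn1 (chr19:6046532-6046550, plus strand): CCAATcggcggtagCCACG
Chac1 (chr2:119351038-119351067, minus strand): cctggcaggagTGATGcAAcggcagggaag
Trib3 (chr2:152344028-152344057, plus strand): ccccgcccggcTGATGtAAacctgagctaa
Herpud1 (chr8:94386306-94386335, minus strand): ggggtgcgggcTGATGcAAcccgccgtggt

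Library totals ran from 48307580 to 78039543 gene counts. Osteoblast lineage genes Col1a1, Spp1, Sparc and Runx2 passed the filter, whereas Alpl, Bglap, Ibsp and Sp7 did not, the highest single value among them being 0.746 FPKM. Several libraries stood apart. PLLA/ZnO@Col -US 1 and 3 and PLLA/ZnO@Col +US 1 held 1.68 to 3.12 CPM (counts scaled to a common library total) from 4 Y-linked genes and 0.0709 to 0.128 FPKM of Thy1, a mesenchymal surface marker, and are called below the 3 libraries that lack Y-linked reads. PLLA +US 3, PLLA/ZnO +US 3 and PLLA/ZnO@Col +US 2 and 3 held 19.2 to 46.9 CPM from the Y-linked genes, and the other 11 libraries 81.7 to 154 CPM. The 8 macrophage and osteoclast markers summed to 31.8 to 42.6 FPKM in 12 libraries and to 13.4 to 23.2 FPKM in the other 6, 3 of them on collagen, and Ptprc and Adgre1 reached at most 0.0935 and 0.0813 FPKM. In bulk RNA, fewer cells of a type and less RNA per cell cannot be told apart.

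The members spanned a wide range of levels. Among the chaperones the highest median over 18 libraries was that of P4hb, protein disulfide isomerase and a subunit of the collagen prolyl hydroxylase, at 335 FPKM. Calr and Hsp90b1, a lectin chaperone and the ER member of the HSP90 family, had medians of 241 and 228 FPKM. Pdia3, a disulfide isomerase that works with calreticulin, Hspa5, the HSP70 chaperone BiP, and Canx, the membrane-bound lectin chaperone calnexin, followed at 167, 123 and 109 FPKM. Dnajb9, a small cochaperone of BiP, was lowest at 4.41 FPKM. The remaining chaperones, Pdia4, Pdia6, Dnajb11, Dnajc3, Hyou1, Sdf2l1, Creld2 and Manf, had medians between 10.4 and 90.4 FPKM. The degradation genes Herpud1, Syvn1, Sel1l and Edem1, whose products form or feed the retrotranslocation machinery, lay between 11.3 and 19.2 FPKM. The sensors were low, with medians of 9.03 for Atf6, 5.16 for Ern1 and 3.89 FPKM for Eif2ak3, and Xbp1 was at 23.3 FPKM. In the ATF4 list, Shmt2, Phgdh, Atf5 and Psat1 were highest at 99, 97.3, 84.8 and 83.4 FPKM. Ddit3, Trib3, Ppp1r15a and Chac1 were at 16.7, 6.69, 5.93 and 5.67 FPKM.

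Atf4 itself varied little. It was at 62.0, 66.0 and 68.1 FPKM in PLLA -US, at 66.8, 65.4 and 89.3 in PLLA +US, and at 73.8, 80.6 and 64.4 in PLLA/ZnO -US. It was at 66.7, 69.8 and 66.1 FPKM in PLLA/ZnO +US, at 65.8, 72.9 and 97.8 in PLLA/ZnO@Col -US, and at 68.3, 79.6 and 75.4 in PLLA/ZnO@Col +US. The group means, 65.4 to 78.9 FPKM, lay closer together than libraries within the most variable groups. In FPKM all 6 groups overlapped in range except PLLA -US with PLLA/ZnO@Col +US. On the log2 CPM scale PLLA -US also lay wholly below PLLA/ZnO@Col -US, and PLLA/ZnO +US wholly below PLLA/ZnO@Col +US. Xbp1 was at 21.4, 22.6 and 21.5 FPKM in PLLA -US, at 21.1, 22.7 and 35.6 in PLLA +US, at 22.4, 25.0 and 23.1 in PLLA/ZnO -US and at 22.5, 23.7 and 35.5 in PLLA/ZnO +US. On collagen it was at 30.3, 17.3 and 40.1 FPKM without and 31.9, 24.9 and 23.5 with ultrasound. Its highest libraries were PLLA/ZnO@Col -US 3, PLLA +US 3 and PLLA/ZnO +US 3, and its lowest was PLLA/ZnO@Col -US 2.

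**Figure D1:**
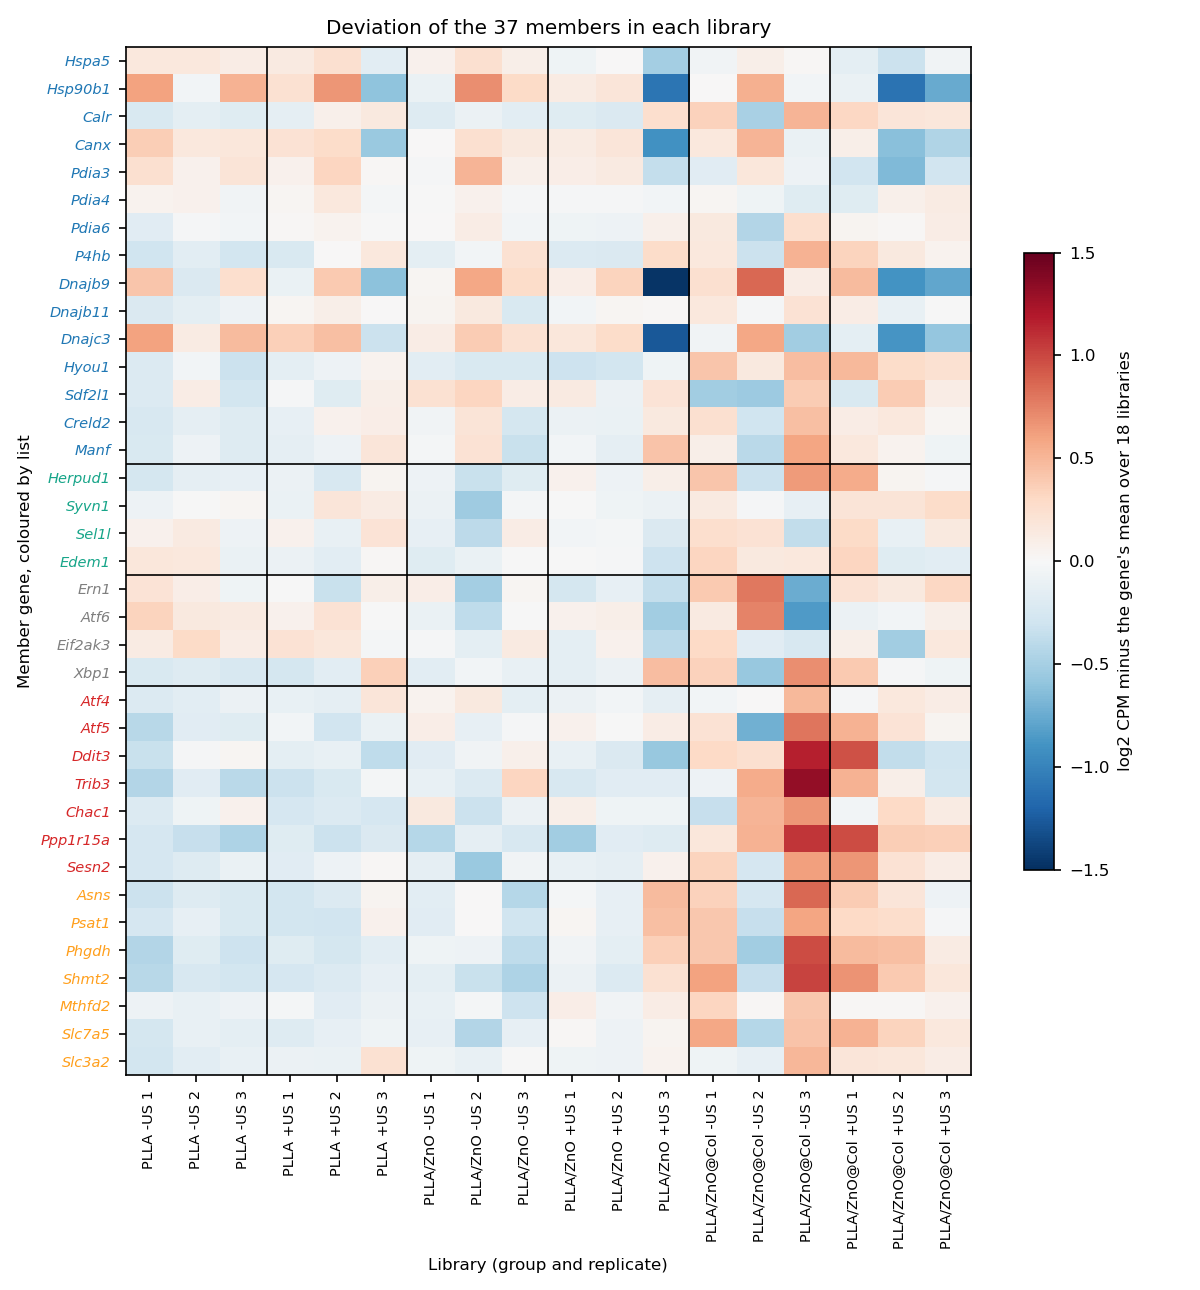
Each row is a member gene and each column a library (group and replicate). Colour is log2 CPM minus the gene's mean over the 18 libraries, from blue (lower) to red (higher), and vertical lines part the 6 groups. Hsp90b1, Canx, Dnajb9 and Dnajc3 are blue together in PLLA +US 3, PLLA/ZnO +US 3 and PLLA/ZnO@Col +US 2 and 3, while ATF4 genes are red in PLLA/ZnO@Col -US 3 and +US 1.

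Chaperones did not vary as a block between libraries. Over the 18 libraries the median deviation of the 15 chaperones from their own means lay between -0.17 and 0.22 on the log2 CPM scale, while single chaperones deviated far more and in opposite directions. Hsp90b1 deviated by -0.60, -1.09, -1.11 and -0.75 in PLLA +US 3, PLLA/ZnO +US 3 and PLLA/ZnO@Col +US 2 and 3, and by 0.70 in PLLA/ZnO -US 2. Dnajb9 deviated by -0.61, -1.47, -0.90 and -0.77 in the same 4 libraries. P4hb deviated by 0.16, 0.27, 0.14 and 0.05 there. These deviations went along with base composition. The longest annotated transcript of Dnajb9, Hsp90b1, Canx and Dnajc3 has 40.6%, 42.1%, 42.2% and 43.2% G and C, the 4 lowest values among the members. That of P4hb has 53.8%.

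The same relation ran through all genes of a library. Across the tested genes, the slope of the deviation on transcript GC ran from -0.45 log2 units per 10 points of GC in PLLA/ZnO@Col -US 2 to 0.73 in PLLA/ZnO +US 3. Across the 37 members, which are not independent replicates and share 1 library each time, Pearson's r of deviation with GC ran from -0.778 in PLLA -US 1 to 0.788 in PLLA/ZnO@Col +US 2. It was 0.652, 0.459 and 0.652 in PLLA/ZnO +US 3, PLLA +US 3 and PLLA/ZnO@Col +US 3. The lists differ in composition: the median GC was 48.9% for the chaperones, 57.4% for the ATF4 regulators, 53.4% for the amino acid genes and 49.7% for all tested genes. Some results are given with and without a correction for GC in each library, which was chosen after the data were seen. The highest slopes, 0.38 to 0.73, were those of the 4 libraries with few Y-linked reads, all with ultrasound. Technical and biological sources of the slope cannot be told apart here, and the correction may remove both. A value is uncorrected unless the correction is named.

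**Figure D2:**
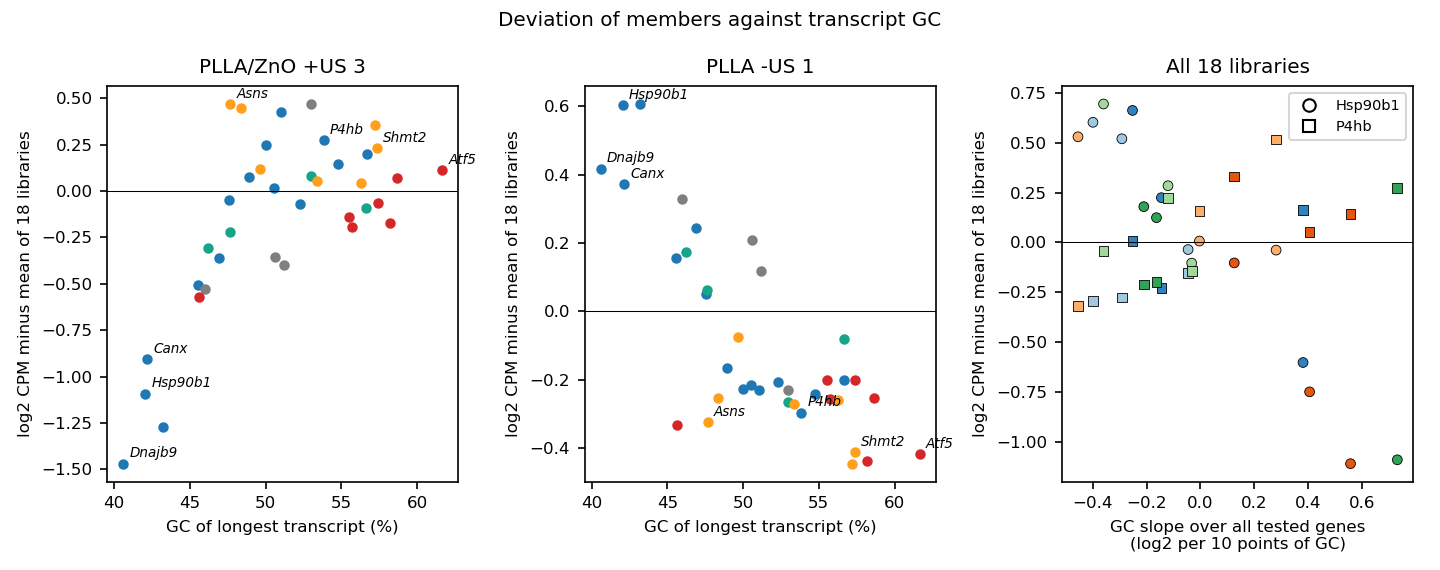
The left and middle panels plot the log2 CPM deviation of each of the 37 members against the GC percent of its longest transcript, in PLLA/ZnO +US 3 and PLLA -US 1, with points coloured by list (blue chaperones, green degradation, grey sensors and Xbp1, red ATF4 regulators, orange amino acid genes). The right panel plots Hsp90b1 (circles) and P4hb (squares) in all 18 libraries against the slope on GC over all tested genes, with points coloured by group, and shows Hsp90b1 lower and P4hb higher where the slope is high.

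The largest differences among the members were between the collagen membrane and PLLA/ZnO. Without ultrasound, all 14 genes of the ATF4 list had a higher mean on collagen, where 55% of all tested genes did, and 8 of 15 chaperones did. No member was called, as no gene was, at an adjusted p under 0.05 (edgeR's quasi-likelihood test, Benjamini-Hochberg over 11936 genes), so the background of calls was 0%. At an unadjusted p under 0.05, 11 of 37 members were higher and 0 lower, against 12.9% of all genes in either direction and 7.77% higher. DESeq2, an alternative to edgeR, called 4 members (Hyou1, Ppp1r15a, Shmt2 and Mthfd2) among 407 genes. The 11 were 9 of the 14 ATF4 genes, the chaperone Hyou1 and the degradation gene Herpud1. On the log2 CPM scale groups did not overlap upward for 5 members, against 5.36% of genes. The median log2 fold change was 0.49 for the ATF4 list, 0.08 for the chaperones and 0.04 for all tested genes. Of the 8 members with an ER stress element in their promoter window, 7 of them chaperones, none was among the 11. Of the 4 with a CEBP-ATF element Asns, Trib3 and Herpud1 were, where 11 of all 37 members were, although only 33 members had a window. Hyou1, the only chaperone among the 11, had no window to search. Since the ER stress element lay mostly in chaperones and the CEBP-ATF element mostly in ATF4 genes, these counts largely restate the difference between the lists. They describe letters and not binding.

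**Figure D3:**
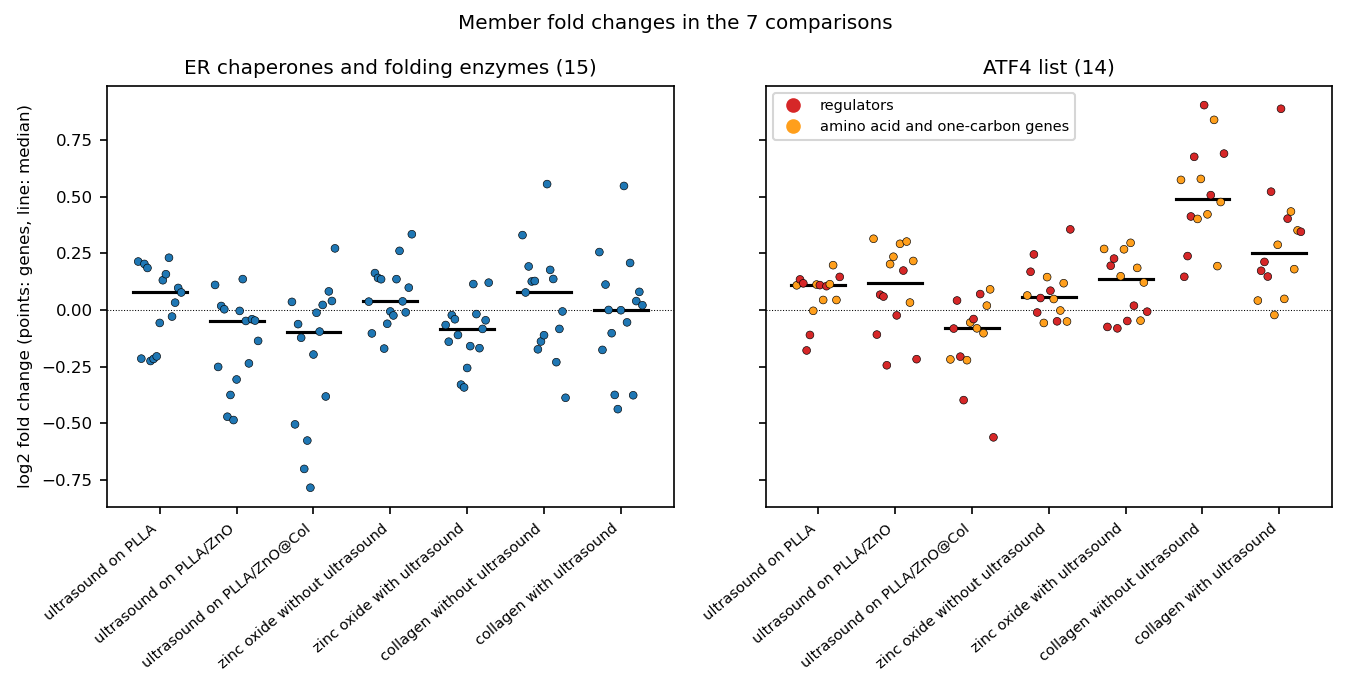
Log2 fold changes of each chaperone (left) and each ATF4 gene (right) in the 7 comparisons, 1 point a gene, with the median as a line. The ATF4 genes lie above 0 in the comparison of collagen without ultrasound (median 0.49), and the chaperone medians lie between -0.09 and 0.08, with 13 of 15 chaperones below 0 for zinc oxide with ultrasound.

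Hyou1 encodes the large ER chaperone GRP170, a nucleotide exchange factor of BiP (chromosome 9, 44379490 to 44392369). It was at 18.3, 17.8 and 17.4 FPKM in PLLA/ZnO -US and at 25.8, 23.1 and 27.7 in PLLA/ZnO@Col -US. With ultrasound it was at 16.4, 17 and 20.0 FPKM on PLLA/ZnO and 27.8, 24.7 and 23.5 on collagen, and on PLLA at 17.7, 20.4 and 16.7 without and 18.7, 19.5 and 23.3 with ultrasound. Every collagen library was above every PLLA/ZnO library, while PLLA +US 3 reached the lower end of the collagen range on this scale. The log2 fold change on collagen was 0.56 without ultrasound (SE 0.12, adjusted p = 0.0817) and 0.55 with it (SE 0.12, adjusted p = 0.339, both edgeR).

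Ppp1r15a encodes GADD34, the regulatory subunit that brings protein phosphatase 1 to phosphorylated eIF2 alpha and so ends the stress signal (chromosome 7, 45522916 to 45526268). It was at 4.93, 6.2 and 5.58 FPKM in PLLA/ZnO -US and at 7.13, 9.78 and 13.7 in PLLA/ZnO@Col -US. With ultrasound it was at 4.57, 5.91 and 5.94 FPKM on PLLA/ZnO and 12.7, 8.56 and 8.34 on collagen. On PLLA it was at 5.56, 5.39 and 4.90 FPKM without and 5.91, 5.32 and 6.32 with ultrasound. All 6 collagen libraries were higher than the other 12, with a 3-fold range over the 18. Its log2 fold change was 0.90 without ultrasound (SE 0.22, adjusted p = 0.106) and 0.89 with it (SE 0.22, adjusted p = 0.339, both edgeR).

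**Figure D4:**
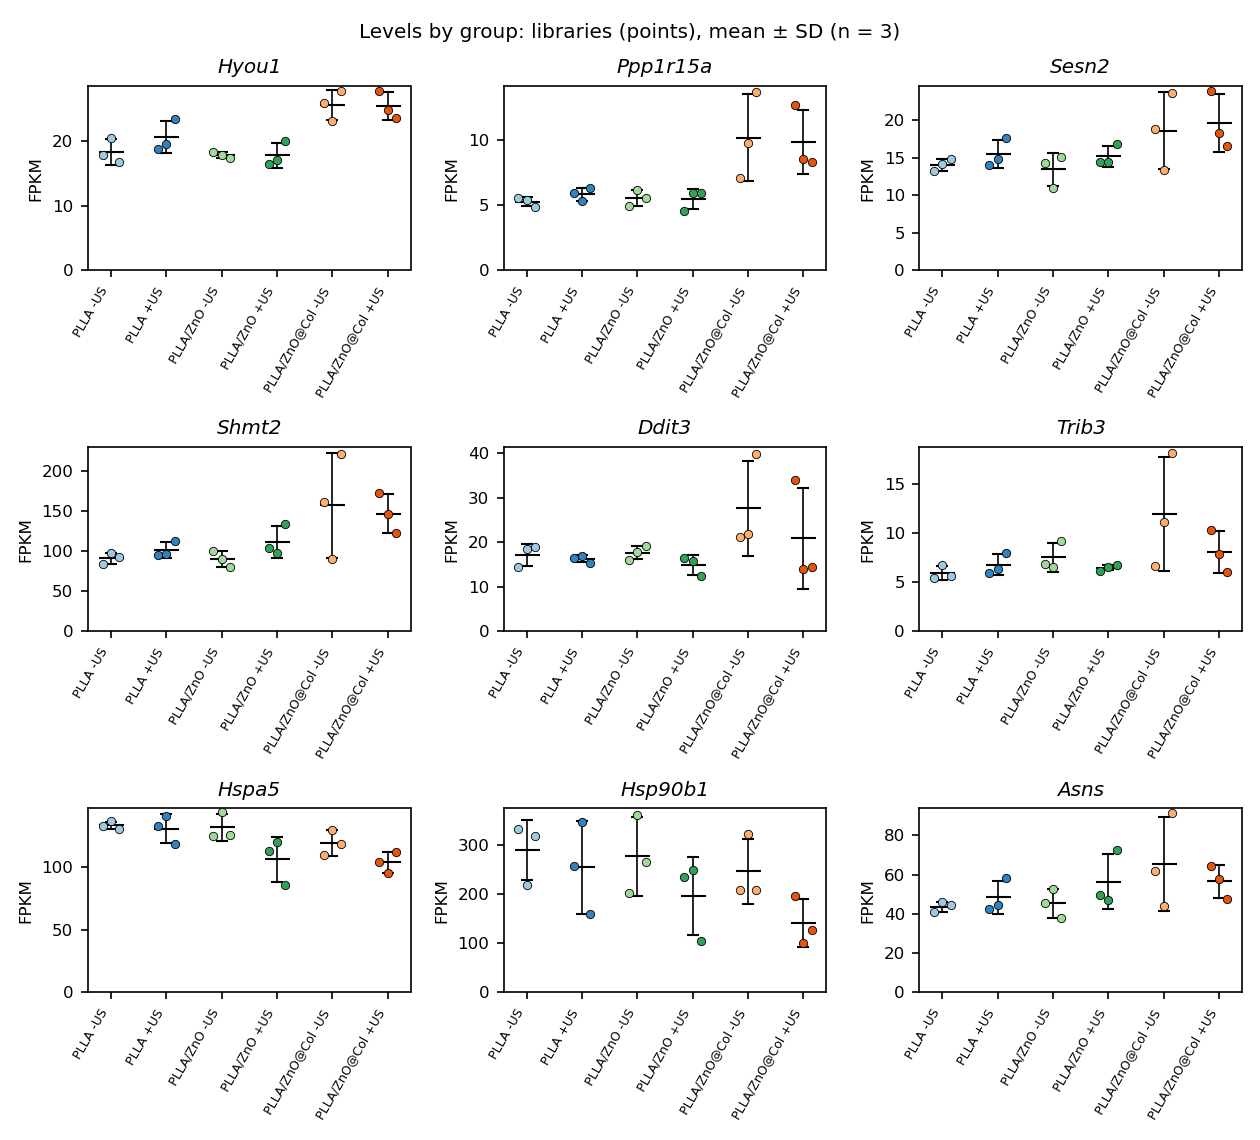
FPKM of 9 members in the 6 groups, with libraries as points and the mean ± SD (n = 3) as bars, on axes that start at 0. Hyou1 and Ppp1r15a are higher in all 6 collagen libraries than in all 6 PLLA/ZnO libraries, whereas Ddit3, Trib3 and Shmt2 on collagen spread over a wide range within a group.

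On the log2 CPM scale, Hyou1 and Ppp1r15a were the 2 members for which every collagen library exceeded every other library of the series. Such a separation was found upward in 36 of 11936 genes (0.302%). A contrast averaged over the ultrasound arms, added after these values were seen, called both: Hyou1 with a log2 fold change of 0.55 (SE 0.09, adjusted p = 0.0200) and Ppp1r15a with 0.90 (SE 0.15, adjusted p = 0.0214, edgeR). It called 328 of all genes (2.75%), and at an unadjusted p under 0.05 it had 13 of 37 members, 12 higher and Pdia3 lower, against 20.1% of genes. Since it uses the libraries that drew attention to these genes, it is a description of them and not an independent test. The call depended on single libraries. Both genes lost it without PLLA/ZnO -US 2 (adjusted p = 0.0717 for Hyou1 and 0.0553 for Ppp1r15a), PLLA/ZnO +US 1 (0.0811 and 0.0817), PLLA/ZnO +US 2 (0.0671 for each), PLLA/ZnO@Col +US 1 (0.0677 and 0.0664) or PLLA/ZnO@Col +US 2 (0.0557 and 0.0515, all edgeR). Hyou1 also lost it without PLLA/ZnO@Col -US 1 (adjusted p = 0.0513) and Ppp1r15a without PLLA/ZnO -US 1 (adjusted p = 0.0531, edgeR). The log2 fold changes stayed at 0.51 to 0.59 for Hyou1 and 0.75 to 0.99 for Ppp1r15a. When the fit held only the 4 groups compared, the adjusted p of each was 0.158. After the GC correction both were called, Hyou1 at 0.46 (adjusted p = 0.00868) and Ppp1r15a at 0.76 (adjusted p = 0.0237, edgeR). Both were also called with DESeq2, limma, filterByExpr or a replicate block, and neither with no filter on low values.

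The other ATF4 regulators differed widely among the collagen libraries. Sesn2, a leucine sensor that restrains mTORC1, was at 14.3, 10.9 and 15.1 FPKM in PLLA/ZnO -US, 18.8, 13.4 and 23.6 in PLLA/ZnO@Col -US. It was then at 14.4, 14.4 and 16.8 in PLLA/ZnO +US and 23.9, 18.3 and 16.5 in PLLA/ZnO@Col +US. On PLLA it lay between 13.2 and 17.6 FPKM. In 4 of the 6 collagen libraries it was above every library without collagen. Replicate 2 of PLLA/ZnO@Col -US fell within the range of PLLA/ZnO -US, so those groups overlapped (log2 fold change 0.51, SE 0.20, adjusted p = 0.293, edgeR).

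Trib3, a pseudokinase that feeds back on ATF4, was at 6.87, 6.59 and 9.25 FPKM in PLLA/ZnO -US and 6.66, 11.2 and 18.2 in PLLA/ZnO@Col -US (log2 fold change 0.69, SE 0.28, adjusted p = 0.305, edgeR). It was at 6.21, 6.61 and 6.73 FPKM in PLLA/ZnO +US, 10.3, 7.91 and 6.01 in PLLA/ZnO@Col +US, and on PLLA at 5.45, 6.77 and 5.69 without and 6.01, 6.36 and 8.02 with ultrasound. Replicate 3 of PLLA/ZnO@Col -US was the highest library and replicate 1 of that group lay among the libraries without collagen. Ddit3, which encodes the pro-apoptotic factor CHOP, was at 16.1, 17.9 and 19.1 FPKM in PLLA/ZnO -US and 21.2, 21.9 and 39.9 in PLLA/ZnO@Col -US. With ultrasound it was at 16.6, 15.7 and 12.5 FPKM on PLLA/ZnO and 34.1, 14 and 14.5 on collagen, and on PLLA it was at 14.4, 18.4 and 18.9 without and 16.5, 16.9 and 15.4 with ultrasound. The groups without ultrasound did not overlap, and the highest libraries were PLLA/ZnO@Col -US 3 and PLLA/ZnO@Col +US 1, which are among the 3 libraries without Y-linked reads. Its log2 fold change without ultrasound was 0.68 (SE 0.31, adjusted p = 0.376, edgeR).

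Chac1, which degrades glutathione, was at 6.49, 4.81 and 5.49 FPKM in PLLA/ZnO -US and 4.38, 8.51 and 9.13 in PLLA/ZnO@Col -US. It was at 6.17, 5.62 and 5.71 FPKM in PLLA/ZnO +US, 5.49, 7.24 and 6.25 in PLLA/ZnO@Col +US, and on PLLA at 5.09, 5.76 and 6.23 without and 4.95, 5.10 and 5.41 with ultrasound. Its lowest and highest libraries were both in PLLA/ZnO@Col -US. Atf5, a transcription factor under ATF4, also had both its lowest and its highest library in that group, 52.4 and 144 FPKM.

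Replicate 2 was the lowest of the 3 PLLA/ZnO@Col -US libraries for all 7 amino acid genes on the log2 CPM scale, and for all but Slc3a2 in FPKM. Asns, asparagine synthetase, was at 45.7, 52.7 and 37.7 FPKM in PLLA/ZnO -US and 61.7, 43.8 and 91.3 in PLLA/ZnO@Col -US. It was at 49.8, 47.1 and 72.4 FPKM in PLLA/ZnO +US, 64.1, 58.0 and 47.5 in PLLA/ZnO@Col +US, and on PLLA at 40.8, 45.9 and 44.3 without and 42.7, 44.4 and 58.3 with ultrasound. Replicates 1 and 3 of PLLA/ZnO@Col -US were high and replicate 2 lay within the PLLA/ZnO range (log2 fold change 0.57, SE 0.23, adjusted p = 0.305, edgeR).

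Shmt2, the mitochondrial serine hydroxymethyltransferase, was at 101, 90.2 and 80.6 FPKM in PLLA/ZnO -US and 161, 89.7 and 221 in PLLA/ZnO@Col -US (log2 fold change 0.84, SE 0.25, adjusted p = 0.164, edgeR). It was at 104, 97.3 and 134 FPKM in PLLA/ZnO +US, 172, 146 and 123 in PLLA/ZnO@Col +US, and on PLLA at 83.9, 97.2 and 93.1 without and 94.8, 97.0 and 113 with ultrasound. Slc7a5, the light chain of the large neutral amino acid transporter, was at 31.3, 25.7 and 31.3 FPKM in PLLA/ZnO -US and 48.3, 25.9 and 45.2 in PLLA/ZnO@Col -US. For both genes replicate 2 of PLLA/ZnO@Col -US was again the library without the higher level. With ultrasound Slc7a5 was at 34.2, 32.5 and 36.1 FPKM on PLLA/ZnO and 47.5, 43.0 and 37.4 on collagen, which did not overlap, and on PLLA it lay between 28.5 and 36.1 FPKM.

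Mthfd2, a mitochondrial folate enzyme, was at 16.1, 17.4 and 13.9 FPKM in PLLA/ZnO -US and 20.6, 17.9 and 22.5 in PLLA/ZnO@Col -US, which did not overlap (log2 fold change 0.40, SE 0.12, adjusted p = 0.162, edgeR). With ultrasound it was at 18.4, 16.8 and 19.3 FPKM on PLLA/ZnO and 17, 17.5 and 17.8 on collagen, and on PLLA it lay between 15.5 and 18.1 FPKM. With ultrasound the groups overlapped. Psat1 and Phgdh, the serine synthesis enzymes, ranged over 70.4 to 129 and 72.7 to 197 FPKM, and for each the lowest and the highest library were replicates 2 and 3 of PLLA/ZnO@Col -US. Slc3a2, the heavy chain partner of Slc7a5, ranged from 40.7 to 68.0 FPKM.

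With ultrasound, the collagen comparison used none of the same libraries. Of the 14 ATF4 genes 13 were higher on collagen, against 50.4% of all genes, with a median log2 fold change of 0.25, beside 0.00 for the chaperones and for all genes. At an unadjusted p under 0.05 stood Hyou1 and Ppp1r15a, higher, and Pdia3, lower, 3 of 37 members against 9.43% of genes, and none was called by edgeR, with a background of 0%, while DESeq2 called Hyou1 among 47 genes. On the log2 CPM scale groups did not overlap upward for 8 members, against 13.2% of all genes. Atf4 and Sesn2 are among these, although their groups overlapped in FPKM. After the GC correction 10 of the 14 ATF4 genes were higher and their median was 0.07, while Hyou1 was at 0.44 (SE 0.10, adjusted p = 0.552) and Ppp1r15a at 0.71 (SE 0.21, adjusted p = 0.663, edgeR). Without ultrasound the corrected ATF4 median was 0.41, all 14 remained higher, and Hyou1 was called at 0.49 (SE 0.10, adjusted p = 0.0356) with 98 genes in all.

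**Figure D5:**
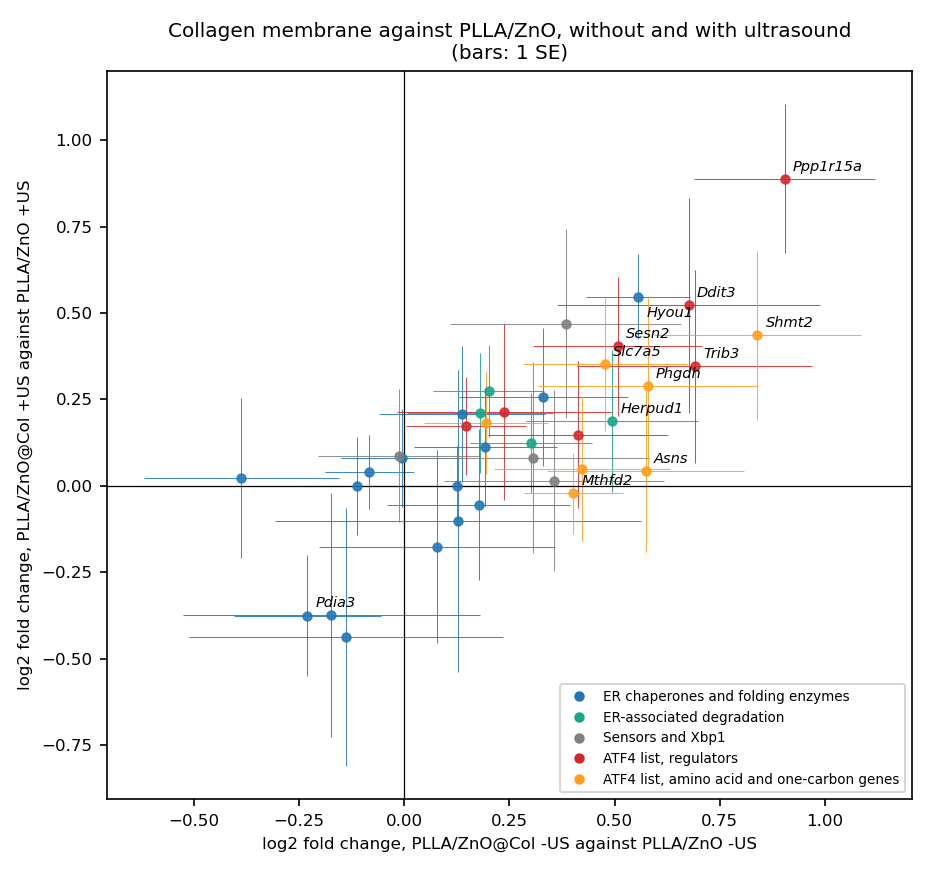
Log2 fold change of each member on collagen against PLLA/ZnO without ultrasound (x) and with ultrasound (y), with bars of 1 SE and points coloured by list. The axes share no library; Ppp1r15a lies at 0.90 and 0.89 and Hyou1 at 0.56 and 0.55, and the amino acid genes lie farther along x than along y.

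The median of the ATF4 list on collagen without ultrasound depended on the 3 libraries that lack Y-linked reads. With ultrasound, leaving them out gave an ATF4 median of 0.17 with 10 of 14 genes higher, and 0.00 with the GC correction as well. Without these libraries PLLA/ZnO@Col -US keeps only replicate 2, whose variance is taken from the other groups. The ATF4 median without ultrasound was then -0.04, or 0.15 with the GC correction as well. Uncorrected, 5 of 14 genes were higher, and Shmt2 and Sesn2 were at -0.04 and -0.03. At an unadjusted p under 0.05 stood 6 members higher (Hyou1, Ern1, Atf6, Trib3, Chac1 and Ppp1r15a) and 3 lower (Pdia6, Sdf2l1 and Atf5), against 18.2% of genes. Ppp1r15a was at 0.79 without ultrasound (adjusted p = 0.0522) and 0.62 with it (adjusted p = 0.252), and Hyou1 at 0.35 (adjusted p = 0.271) and 0.44 (adjusted p = 0.277, all edgeR). In the average over both arms Ppp1r15a was at 0.70, Ern1 at 0.67, Atf6 at 0.50, Hyou1 at 0.39 and Atf5 at -0.33. With the GC correction as well these genes were at 0.71, 0.68, 0.54, 0.40 and -0.35. Before that correction 17 of all 37 members were higher in this average and 20 lower. These 3 libraries also held the highest sums of the macrophage and osteoclast markers, 37.2 to 42.6 FPKM, and the lowest Thy1, and the part of either in the ATF4 levels was not tested.

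PLLA/ZnO@Col -US 2 was the only collagen library without ultrasound that kept Y-linked reads. Its amino acid genes were low, with a median deviation of -0.34 on the log2 CPM scale, while its ATF4 regulators were mixed: their median was 0.24, Trib3, Ppp1r15a and Chac1 were at 0.56, 0.53 and 0.51, and Atf5 and Sesn2 were at -0.72 and -0.26. Leaving out this library gave 11 called members of 37 without ultrasound, where 1039 of all 11936 genes were called. They were Calr, Hyou1, Herpud1, Ppp1r15a, Sesn2, Asns, Psat1, Phgdh, Shmt2, Mthfd2 and Slc7a5. The collagen libraries left, replicates 1 and 3, both lack Y-linked reads, and the PLLA/ZnO libraries do not. Collagen and that difference cannot be told apart in this fit. The ATF4 median was then 0.73. Leaving out PLLA/ZnO@Col -US 3 instead gave a median of 0.26 and no called member. So 1 library decided the size of the ATF4 median in either direction.

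Ultrasound gave no called member on any membrane, by edgeR or by DESeq2. On PLLA 0 of 37 members had an unadjusted p under 0.05 or were called, where 0.436% and 0% of genes did. The smallest p-values were for Dnajb11, a BiP cochaperone, and Slc3a2. Dnajb11 was at 20.2, 21.8 and 22.6 FPKM without and 24.2, 25.1 and 26.0 with ultrasound on PLLA, which did not overlap, as for 6.23% of genes upward (log2 fold change 0.19, SE 0.11, adjusted p = 0.978, edgeR). It was at 24.2, 26.7 and 20.0 FPKM in PLLA/ZnO -US, 22.6, 24.0 and 24.3 in PLLA/ZnO +US, 24.9, 23.8 and 26.7 in PLLA/ZnO@Col -US and 24.5, 21.7 and 22.9 in PLLA/ZnO@Col +US, so it was lowest on plain PLLA without ultrasound by mean. Slc3a2 had a log2 fold change of 0.20 (SE 0.15, adjusted p = 0.978, edgeR). The ATF4 median was 0.11 and the chaperone median 0.08, and after the GC correction they were 0.00 and 0.08.

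On PLLA/ZnO, 1 of 37 members had an unadjusted p under 0.05 with ultrasound, against 3.24% of genes, and none was called, against 0%. This was Hspa5, the BiP gene (chromosome 2, 34771970 to 34777547). It was at 125, 145 and 126 FPKM without and 113, 120 and 85.9 with ultrasound, which did not overlap, as for 4.42% of genes downward (log2 fold change -0.31, SE 0.14, adjusted p = 0.937, edgeR). Elsewhere it was at 133, 137 and 131 FPKM in PLLA -US, 133, 141 and 119 in PLLA +US, 110, 130 and 119 in PLLA/ZnO@Col -US and 104, 95.3 and 112 in PLLA/ZnO@Col +US, and the lowest single library was PLLA/ZnO +US 3. Its GC-corrected log2 fold change was -0.15 (SE 0.10), and without the 4 libraries with few Y-linked reads it was -0.17. All 7 amino acid genes had a higher mean with ultrasound, at 0.03 to 0.31 with a median of 0.24, while 46.3% of all genes did, and Mthfd2 was nearest to the threshold at 0.20 (SE 0.12, adjusted p = 0.937, edgeR). Much of this lay in PLLA/ZnO +US 3. Without it the median was 0.10, 6 of the 7 were higher and Slc3a2 was at -0.02, and after the GC correction 6 of the 7 were higher with a median of 0.19.

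On collagen, ultrasound gave 1 of 37 members at an unadjusted p under 0.05, against 8.18% of genes, and no call, against 0%. Pdia3 was at 132, 180 and 146 FPKM without and 125, 99.4 and 126 with ultrasound (log2 fold change -0.38, SE 0.18, adjusted p = 0.525, edgeR). It was at 155, 229 and 165 FPKM in PLLA/ZnO -US, 167, 173 and 125 in PLLA/ZnO +US, 187, 169 and 182 in PLLA -US and 166, 198 and 175 in PLLA +US, so its mean was lowest on collagen with ultrasound. Hsp90b1 was at 208, 322 and 209 FPKM without and 197, 101 and 127 with ultrasound. For both genes the groups did not overlap, as for 5.59% of genes downward (for Hsp90b1 log2 fold change -0.78, SE 0.38, adjusted p = 0.525, edgeR).

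Hsp90b1 was at 332, 219 and 318 FPKM in PLLA -US, 258, 348 and 159 in PLLA +US, 203, 362 and 265 in PLLA/ZnO -US and 236, 249 and 105 in PLLA/ZnO +US. In each ultrasound group the lowest libraries were those with a high slope on GC. After the GC correction its difference on collagen was -0.31 (SE 0.16) and that of Pdia3 -0.27 (SE 0.14), with adjusted p = 0.876 for each (edgeR). Without the 4 libraries with few Y-linked reads the differences were -0.30 and -0.27, but PLLA/ZnO@Col +US then keeps only replicate 1, itself among the 3 libraries that lack Y-linked reads, with its variance taken from the other groups. All 14 ATF4 genes were lower with ultrasound on collagen after the correction (median -0.20), against 10 of 14 before it (median -0.08), and without the 3 libraries that lack Y-linked reads the uncorrected median was 0.28 and Atf5 was called, at 0.85 (adjusted p = 0.0497, edgeR). With both changes the called member was Trib3, lower, at -1.14 (adjusted p = 0.0142, edgeR), and Atf5 was not called. Both of these fits compare with a single library without ultrasound. The direction of the list in this comparison thus depended on those libraries.

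The comparisons of PLLA/ZnO with PLLA asked what zinc oxide adds. Without ultrasound 0 of 37 members had an unadjusted p under 0.05, against 1.19% of genes, and with ultrasound 0 of 37, against 1.27%, with no member called by edgeR or DESeq2 and an edgeR background of 0% in each. The nearest without ultrasound were Sdf2l1, a component of an ER chaperone complex (0.33, SE 0.23), and Syvn1, the ubiquitin ligase HRD1 of ER-associated degradation (-0.18, SE 0.13), each with an adjusted p of 1 (edgeR). With ultrasound they were Hspa5 (-0.26, SE 0.14) and Psat1 (0.30, SE 0.21), again with an adjusted p of 1 (edgeR). The medians were 0.04 for the chaperones and 0.06 for the ATF4 list without ultrasound, and -0.08 and 0.14 with it, where 13 of 15 chaperones were lower and 46.2% of all genes were higher. These comparisons share their PLLA/ZnO libraries with the ultrasound and collagen comparisons and are not independent of them.

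Differences in the ultrasound response between membranes were tested directly. No member was called in any of the 3, and neither was any gene (0%). Between PLLA/ZnO@Col and PLLA/ZnO, Mthfd2 had an unadjusted p under 0.05, 1 of 37 members against 2.2% of genes, with a difference of -0.42 (SE 0.17, adjusted p = 0.999, edgeR), and Asns was next at -0.53 (SE 0.33, adjusted p = 0.999). The 7 amino acid genes all had a lower response on collagen, with a median of -0.37, while 42.8% of all genes had a higher one. Without the 3 libraries that lack Y-linked reads, which leaves 1 collagen library without ultrasound, the median was 0.21 and 5 of the 7 had a higher response, and with the GC correction as well it was 0.05 with 4 higher. The direction thus depended on those libraries. Between PLLA/ZnO and PLLA, 0 of 37 members were under 0.05, against 0.385% of genes, Mthfd2 (0.21, SE 0.17) and Hspa5 (-0.25, SE 0.20) being nearest, with an adjusted p of 1 for each (edgeR). All 15 chaperones had a lower response on PLLA/ZnO there, with a median of -0.18, while 46.8% of all genes had a higher one. Without PLLA/ZnO +US 3 it was 11 of 15, with a median of -0.21. Between PLLA/ZnO@Col and PLLA, it was 0 of 37 against 1.22%, with Dnajb11 at -0.31 (SE 0.16) and Trib3 at -0.71 (SE 0.39), each with an adjusted p of 1 (edgeR). Here 13 of 15 chaperones had a lower response on collagen, with a median of -0.25, while 41.9% of all genes had a higher one, and without the 3 libraries that lack Y-linked reads it was 8 of 15, with a median of -0.04. For Hyou1 the difference between PLLA/ZnO@Col and PLLA/ZnO was -0.01 (SE 0.17) and for Ppp1r15a -0.02 (SE 0.30), with an adjusted p of 0.999 for each (edgeR).

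Pairs of members varied together over the libraries to different degrees. For 5 pairs, Pearson's r and Spearman's rho were taken over log2 CPM with a permutation test of 100000 resamples and adjustment over the 5. The resamples shuffled libraries across the 6 groups, so differences between groups that 2 genes share can lower these p-values. Asns and Psat1 were closest, with r = 0.967 and rho = 0.963 over 18 libraries (adjusted p = 5e-05 for each), r = 0.963 without the 2 farthest libraries and r = 0.863 within the 11 libraries outside the 7 that stand apart by Y-linked reads. Hspa5 and Hsp90b1 had r = 0.879 and rho = 0.845 (adjusted p = 7.5e-05 for each), r = 0.765 without the 2 farthest libraries, 0.587 within the 11 (adjusted p = 0.0722) and 0.262 after the GC correction (adjusted p = 0.495).

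Ddit3 and Trib3 had r = 0.798 (adjusted p = 0.00123) but rho = 0.391 (adjusted p = 0.109), and r = 0.385 without PLLA/ZnO@Col -US 3 and PLLA/ZnO@Col +US 1. Within the 11 libraries, which hold neither of these, r was 0.762 (adjusted p = 0.0157), and 0.379 there without PLLA/ZnO@Col -US 2 and PLLA -US 1. In both of these sets the size of r thus rested on the 2 libraries farthest from the set's median. Without the 4 libraries with few Y-linked reads r was 0.877 and rho 0.701. There r was 0.645 without PLLA/ZnO@Col -US 3 and PLLA/ZnO@Col +US 1. Atf4 and Asns had r = 0.627 (adjusted p = 0.00998) and rho = 0.569 (adjusted p = 0.0183), with r = 0.291 without the 2 farthest libraries, 0.647 within the 11 (adjusted p = 0.0551) and -0.0759 after the GC correction. Hspa5 and Asns ran opposite, with r = -0.562 (adjusted p = 0.0174) and rho = -0.664 (adjusted p = 0.00603). Without the 2 farthest libraries r was -0.469. Without the 3 libraries that lack Y-linked reads it was -0.832 (adjusted p = 7e-04), and -0.455 there without its own 2 farthest, PLLA/ZnO +US 3 and PLLA/ZnO@Col +US 2. Within the 11 libraries it was -0.123, and after the GC correction it was 0.195. With each library centred on its group mean, r was 0.958 for Asns with Psat1, 0.849 for Hspa5 with Hsp90b1 and 0.681 for Ddit3 with Trib3. For Atf4 with Asns r was then 0.574 and rho 0.412 (permutation, adjusted p = 0.0164 and 0.0904). For Hspa5 with Asns they were -0.476 and -0.478 (permutation, adjusted p = 0.0466 and 0.0691). The smallest p these permutations can give is 1e-05.

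Other genes of the pathways, from lists of 85 genes of which 79 were tested, gave the following. On collagen without ultrasound, 12 of 31 further ATF4 and amino acid genes had an unadjusted p under 0.05, all higher, where 7.77% of all genes were so, with a median log2 fold change of 0.27, and the smallest p-values were those of Wars, a tRNA synthetase (0.64, SE 0.16, adjusted p = 0.121), Slc6a9, a glycine transporter (0.49, SE 0.14, adjusted p = 0.166), and Slc7a1, a cationic amino acid transporter (0.60, SE 0.18, adjusted p = 0.166, edgeR). With ultrasound it was 2 higher and 1 lower of 31, near the 9.43% of all genes, led by the glutamine transporter Slc1a5 (0.40, SE 0.11, adjusted p = 0.403, edgeR). Of 33 further ER folding and translocation genes 3 were higher and 1 lower without ultrasound, and 2 higher and 1 lower with it, near the 12.9% and 9.43% of all genes. In the average over both arms Slc1a5 (0.36, SE 0.08, adjusted p = 0.0309) and Slc6a9 (0.40, SE 0.10, adjusted p = 0.0480, edgeR) were called, 2 of the 31 where 2.75% of all genes were, and none of the 33 folding genes was. After the GC correction neither was called, at 0.23 (adjusted p = 0.160) and 0.28 (adjusted p = 0.153, edgeR). Wars was then called, at 0.34 in the average (adjusted p = 0.0379) and 0.55 without ultrasound (adjusted p = 0.0379, edgeR).

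In the ultrasound comparisons the further genes gave few differences. On PLLA 0 of 79 had an unadjusted p under 0.05, against 0.436% of all genes. On PLLA/ZnO it was 2 of 79, against 3.24%, both lower: Ero1l, the oxidase that recharges disulfide isomerases (-1.27, SE 0.47, adjusted p = 0.937), and Vldlr (-0.74, SE 0.29, adjusted p = 0.937, edgeR). On collagen it was 8 of 79, near the 8.18% of all genes. They were 1 higher, Txndc5, a disulfide isomerase (0.48, SE 0.15, adjusted p = 0.525), and 7 lower, among them Erp44 (-0.35, SE 0.14) and Eprs (-0.69, SE 0.30, adjusted p = 0.525 for each, edgeR). After the GC correction Txndc5 was at 0.33 (SE 0.12), Eprs at -0.34 (SE 0.14) and Erp44 reversed to 0.15 (SE 0.32). Zinc oxide without ultrasound gave Spcs1 (0.33, SE 0.15) and Sec61g (0.48, SE 0.22), of the signal peptidase and the translocon, each with an adjusted p of 1 (edgeR), 2 of 79 against 1.19%, and with ultrasound none, against 1.27%.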

How the data were processed

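Total RNA of 18 libraries in 6 groups of 3 was sequenced. Per the file headers, the authors deposited a count and an FPKM value per gene and library. The submitters' processing notes name FastQC, cutadapt 1.9 and the mouse build GRCm38. For the aligner, the counter and the use of strand, the tool or setting was not given in the sources used here, so reads of overlapping or antisense genes cannot be told apart.

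The deposited counts of 11936 genes at 1 FPKM or more in at least 3 libraries were tested with edgeR 4.0.16 in R 4.3.3 (TMM normalization, quasi-likelihood fit over all 18 libraries, 12 residual degrees of freedom, Benjamini-Hochberg adjustment over all tested genes, threshold 0.05). The scripts were tested on simulated data. Levels are the deposited FPKM, and deviations use log2 CPM with a prior count of 2. Alternatives used DESeq2 1.42.0, limma 3.58.1 on log2(FPKM + 1) and log2(FPKM + 0.1), other filters and scalings, a replicate block, and left-out libraries. A correction for transcript GC (a lowess curve per library, span 0.3) and the contrast averaged over ultrasound were added after the data were seen, as was the restriction of correlations to 11 libraries.

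Members and lists were chosen with earlier results of these data known. In each comparison a test is given for up to 6 members with the smallest unadjusted p among those under 0.05, or for the 2 with the smallest p where fewer than 2 are under it. Up to 3 other pathway genes per comparison were named by the same order. Levels in every library are given for the 12 members so named with the smallest p, and for Hspa5, Xbp1, Atf4, Ddit3, Asns and Chac1. Further genes in the text were chosen after their values were seen.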

Additional observations from a re-analysis of the deposited data

How the results depend on the processing

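The collagen comparisons depended on the processing more than the others. DESeq2 called 4 members and 407 genes on collagen without ultrasound, 1 and 47 with it, and 4 and 962 in the average. It called 5 genes for ultrasound on PLLA/ZnO, 3 on PLLA/ZnO@Col, and 1 and 2 for zinc oxide without and with ultrasound. On collagen without ultrasound, limma gave 5 members at an unadjusted p under 0.05 with either pseudocount, and 1 called gene with 0.1, and a fit of only the groups compared gave 4. In the average, limma called 199 genes with a pseudocount of 1 and 181 with 0.1, filterByExpr 125, only the groups compared 1 gene and 0 members, and no filter 0 genes and 0 members. In that average 8 members had an unadjusted p under 0.05 with limma, with no filter, with only the groups compared and without the 3 libraries that lack Y-linked reads. The GC correction called 1 member and 98 genes on collagen without ultrasound.

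Without the 3 libraries, 166 genes were called on collagen without ultrasound, with medians of -0.0476 for the chaperones and -0.0363 for the ATF4 list, and Shmt2 and Sesn2 reversed to -0.0406 and -0.0320. Ultrasound on collagen then gave 1 member and 111 genes, with medians of 0.11 and 0.28, and its difference from PLLA/ZnO and from PLLA 13 genes each. With the GC correction as well, collagen without ultrasound gave 8 members, 925 genes and medians of -0.11 and 0.15. With ultrasound it gave 1 gene, 5 members at an unadjusted p under 0.05 and an ATF4 median of 0.00244, and the average 5 members and 1161 genes. Ultrasound on collagen gave 1 member (Trib3, lower, in place of Atf5, higher, without the correction), 198 genes and a chaperone median of 0.0139, and its difference from PLLA/ZnO 25 genes with Asns reversed to 0.0537, and from PLLA 11 genes. Without the 4 libraries with few Y-linked reads, collagen gave 83 genes without ultrasound, 540 in the average, and with ultrasound 1 gene and medians of 0.13 and 0.53. In this setting replicate 1 alone stands for PLLA/ZnO@Col +US, also in the average.

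The correlation of Hspa5 with Asns was -0.521 without those 4 libraries, -0.123 within the 11 and 0.195 after the GC correction, and that of Atf4 with Asns 0.372 without the 3 libraries, 0.647 within the 11 and -0.0759 after the correction. Hspa5 with Hsp90b1 was 0.587 within the 11 and 0.262 after the correction, and Ddit3 with Trib3 0.421 without the 3. The cause of these shifts was not tested.

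Leaving out 1 library at a time gave 0 to 11 called members, 0 to 1039 genes and 5 to 16 members at an unadjusted p under 0.05 on collagen without ultrasound, with medians of -0.0794 to 0.11 for chaperones and 0.26 to 0.73 for the ATF4 list. The average gave 0 to 9 members, 0 to 1577 genes and 7 to 19 members. Ultrasound on collagen gave 0 to 38 genes and medians of -0.24 to 0.0556 and -0.32 to 0.18. Ultrasound on PLLA/ZnO, zinc oxide with ultrasound, and the differences of PLLA/ZnO from PLLA and of PLLA/ZnO@Col from PLLA/ZnO gave 0 to 1 genes each.

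Replicate numbers did not pair the libraries consistently. Over 45 same-numbered pairs the median correlation of deviations was 0.0639, with a range of -0.513 to 0.731, and 21 were over 0.1. For pairs with other numbers the median was -0.0246, and 11 of 18 libraries correlated best with their own number. With the number as a replicate block the members called stayed at 0 in each comparison and 2 in the average, and the block with the GC correction gave 1 member and 96 genes on collagen without ultrasound. With 3 libraries a group, precision was set by the spread between libraries rather than by counts, the lowest member count being 215.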
